A study of Homo sapiens with 4 samples.

Results

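The genes described here are 10 markers and regulators of the epithelial and mesenchymal states: the cadherin genes CDH1 and CDH2, the epithelial surface gene EPCAM, the mesenchymal genes VIM and FN1, and the transcription factor genes ZEB1, ZEB2, SNAI1, SNAI2 and TWIST1. They were taken by name, with no measured value in the rule, though earlier results of these data were known. All 10 were found among the 26364 gene symbols of the deposited count table. Of these, 9 passed the filter on low counts, and ZEB2 did not. RNA was sequenced from Ishikawa cells, a line derived from a human endometrial adenocarcinoma, to study how the Y537S form of estrogen receptor alpha affects gene expression. All 4 libraries carried this ESR1 mutation and came from cells kept in hormone-deprived medium, so no group lacks the mutant receptor. The DMSO group held 2 libraries of cells given 0.1% DMSO, the vehicle, for 8 h, and the E2 group held 2 libraries of cells given 10 nM estradiol (E2) for 8 h. The labels name 2 clones of the mutant line, each with 1 DMSO and 1 E2 library. The count columns carry the tags A4 and B212 in place of the clone numbers, and the tags are used here.

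Epithelial cells hold one another through E-cadherin, the product of CDH1, whose tail is tied to the actin skeleton by catenins. In the epithelial to mesenchymal transition, SNAI, ZEB and TWIST factors repress CDH1 and other epithelial genes, and cells gain N-cadherin (CDH2), vimentin (VIM) and fibronectin (FN1). Carcinoma cells often hold a mixture of both sets of genes.

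The libraries held between 71575816 and 85222856 counts. No 2 libraries were duplicates of each other: in a chi-square test over genes, the statistic divided by its degrees of freedom was 27.3 or more for all pairs. Every library differed from the others in clone or treatment, so none was a technical repeat of another. Levels are CPM, each count divided by its library's total after TMM scaling (trimmed mean of M values). Differences between tags had treatment as a covariate and compare these 2 clones, each a single line. E2 was compared with DMSO both without a block, as planned, and with the tag as a block. Each tag and treatment had a single library, so no spread between cultures of the same clone and treatment was measured. Without a block, the spread behind the p-values is that between the tags within a treatment. In fits with both tag and treatment, the spread is what these terms leave over. It includes any tag difference in the response to E2 and is not a spread between replicate libraries.

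The libraries held transcripts of both E-cadherin and N-cadherin at high levels, and almost none of vimentin. CDH1 stood at 405 CPM (A4 DMSO), 374 CPM (A4 E2), 572 CPM (B212 DMSO) and 531 CPM (B212 E2). CDH2, which encodes the cadherin of neural and mesenchymal cells, stood at 646, 574, 783 and 755 CPM in the same order. EPCAM, which encodes an epithelial adhesion protein, stood at 505, 553, 575 and 577 CPM. All 3 were thus abundant in every library, and for both cadherins each B212 library lay above each A4 library. Within a library the ratio of CDH1 to CDH2 counts was 0.627 and 0.650 in A4 and 0.731 and 0.703 in B212. Per length of the longest transcript this ratio was 0.556 to 0.647, so CDH2 was the higher of the 2 cadherins in all 4 libraries.

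**Figure D1:**
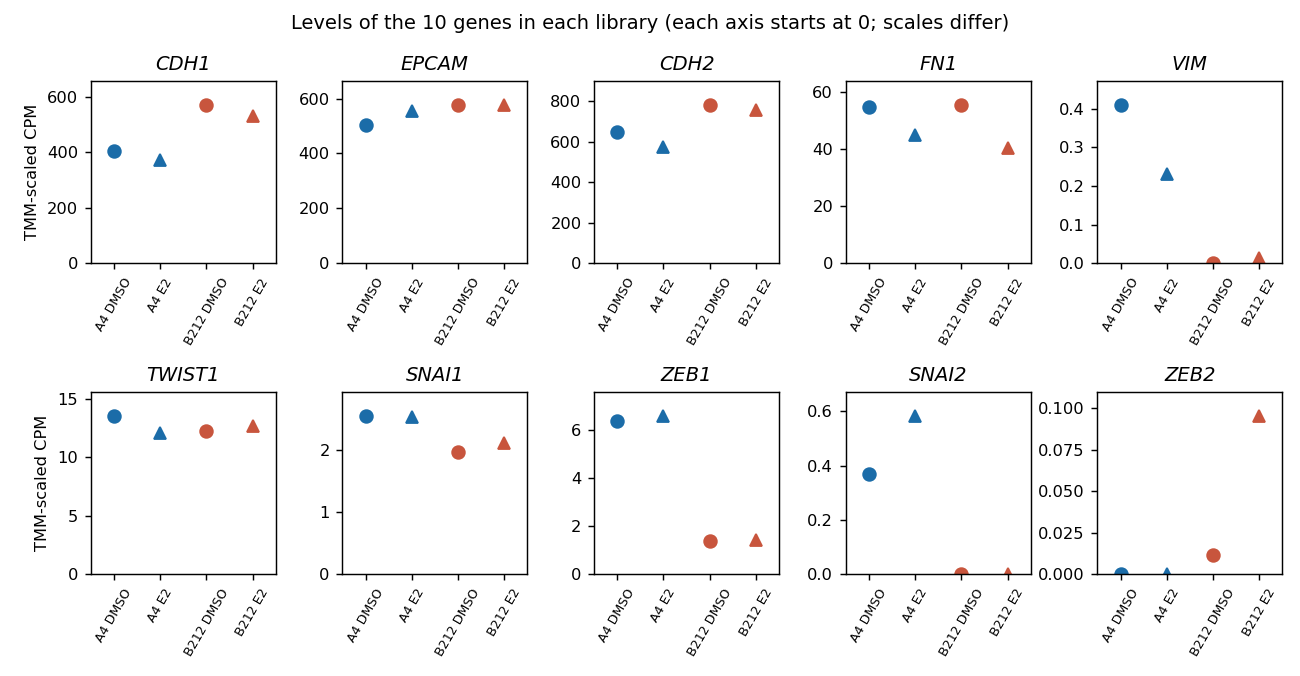
TMM-scaled CPM (y axis, from 0, with a scale of its own for each gene) of the 10 genes in the A4 (blue) and B212 (red) libraries, as circles for DMSO and triangles for E2; each point is 1 library. CDH1 and CDH2 are higher in both B212 libraries, ZEB1, SNAI2 and VIM are higher in both A4 libraries, and both E2 libraries lie below both DMSO libraries for FN1.

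FN1, which encodes the matrix protein fibronectin, stood at 54.9 (A4 DMSO), 44.9 (A4 E2), 55.5 (B212 DMSO) and 40.5 CPM (B212 E2). The 2 DMSO libraries were nearly equal and lay above both E2 libraries. VIM, which encodes the intermediate filament protein of mesenchymal cells, had 30 and 19 counts in A4 and 0 and 1 counts in B212, each in the order DMSO, E2. The highest of these levels was 0.410 CPM. A count of 0 allows up to 3 counts, which is 0.0351 CPM in the B212 DMSO library (counting error only). Its antisense neighbour VIM-AS1 had 1 count in a single library.

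Of the 5 transcription factor genes, TWIST1 had the most counts in every library. TWIST1, a basic helix-loop-helix factor, stood at 13.6 (A4 DMSO), 12.1 (A4 E2), 12.3 (B212 DMSO) and 12.7 CPM (B212 E2), and the tags and the treatments overlapped. SNAI1, a zinc finger repressor of CDH1, stood at 2.55, 2.54, 1.97 and 2.11 CPM. Both A4 libraries lay above both B212 libraries. ZEB1, a zinc finger and homeodomain repressor, stood at 6.40, 6.62, 1.36 and 1.41 CPM, with a wide gap between the tags and no gap between the treatments. SNAI2, the close relative of SNAI1, had 27 and 48 counts in A4 and 0 in both B212 libraries. ZEB2, the relative of ZEB1, had 0 counts in both A4 libraries, 1 count in B212 DMSO and 7 counts in B212 E2. TWIST1 made up 59.3% and 55.4% of the summed counts of the 5 genes in A4 and 78.6% and 77.8% in B212. ZEB1 made up 27.9% and 30.3% in A4 and 8.71% and 8.61% in B212. These sums compare libraries and not genes, since longer transcripts give more counts.

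Levels between genes were compared as CPM per kilobase of the longest transcript. By the mean over libraries the order was EPCAM (321), CDH2 (159), CDH1 (96.2), TWIST1 (7.60), FN1 (5.50), SNAI1 (1.36), ZEB1 (0.630), SNAI2 (0.0982), VIM (0.0767) and ZEB2 (0.00280). Neighbours in this order down to ZEB1 did not overlap over the 4 libraries, and ZEB1, SNAI2, VIM and ZEB2 overlapped one another in turn. EPCAM stood above at least 99.1% of the tested genes per length, CDH2 above at least 96.8% and CDH1 above at least 93.7%. TWIST1 and FN1 lay near the middle, above 53.4% to 55.4% and 43.5% to 49.9% of the tested genes. SNAI1 was above 25.7% to 29.7%. ZEB1 was above 25.6% and 26.1% in A4 and above 11.4% and 11.3% in B212.

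**Figure D2:**
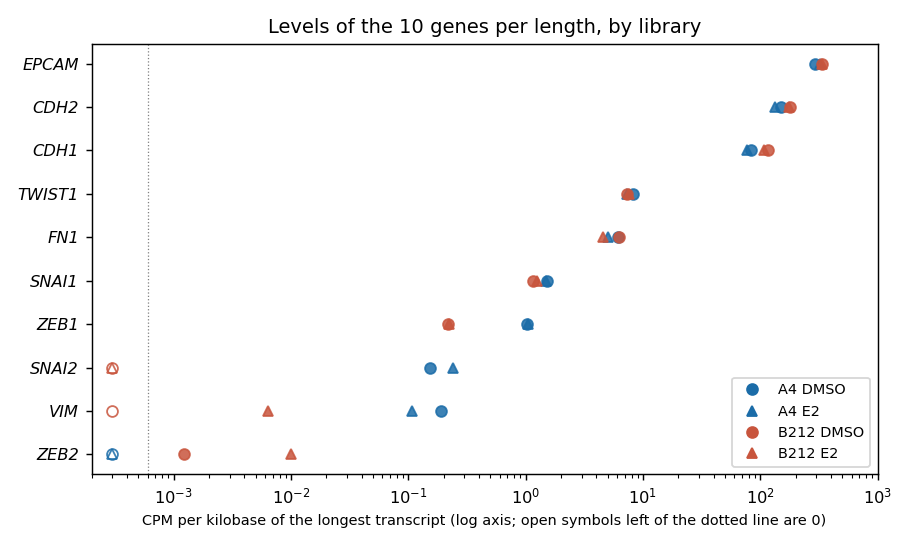
CPM per kilobase (x axis, log scale) of each gene (y axis, ordered by the mean) in each library; open symbols left of the dotted line stand for 0 counts. EPCAM and the cadherins lie above 76 CPM per kilobase in all libraries, FN1 and TWIST1 between 4.55 and 8.15, and SNAI2, VIM and ZEB2 below 0.25.

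The tags differed in 5 of the 9 tested genes, beside 51.0% of all 15599 genes tested. Of these 5, SNAI2 and VIM passed the count filter through their A4 libraries alone, so their calls support nothing in this count, and 3 members were called where every library had to hold at least 10 counts. CDH1 and CDH2 were higher in B212 (25.2% of all genes were called higher), and ZEB1, SNAI2 and VIM were lower (25.8% of all genes were called lower). The calls are from edgeR's quasi-likelihood test with Benjamini-Hochberg adjustment over all genes and a threshold of 0.05. CDH1 was 1.42-fold higher in B212, a log2 fold change of 0.50 ± 0.071 (SE), with an adjusted p-value of 7.27e-06. The difference was 0.50 on the log2 scale between the DMSO libraries and 0.51 between the E2 libraries. CDH2 was 1.26-fold higher, a log2 fold change of 0.34 ± 0.073, with an edgeR adjusted p-value of 7.46e-04. Its difference was 0.28 between the DMSO libraries and 0.39 between the E2 libraries. Both cadherins were thus higher in the same clone. EPCAM was not called (0.12 ± 0.073, edgeR adjusted p-value 0.164). It was called with library size as the only scaling (0.19, adjusted p-value 0.0321) and after removal of the part of each library that followed transcript length and GC content (0.15, adjusted p-value 0.0396), both by edgeR.

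ZEB1 differed in the other direction. Its log2 fold change was -2.23 ± 0.15 (SE) in B212 (edgeR, adjusted p-value 1.14e-10). A4 was 4.71-fold higher between the DMSO libraries (95% interval 3.84 to 5.82) and 4.71-fold higher between the E2 libraries (3.81 to 5.87), where the intervals cover counting error only. ZEB1-AS1, the antisense neighbour of ZEB1, had 211 and 265 counts in A4 and 338 and 276 counts in B212. ZEB1-AS1 was not called between the tags (0.34 ± 0.14, edgeR adjusted p-value 0.0539). The strand setting of the counting is not given in the sources used here, so reads of the 2 genes cannot be told apart where they overlap.

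Against a floor of 3 counts over the group compared, SNAI2 was at least 10.5-fold higher in A4 with DMSO and at least 14.3-fold higher with E2. Its edgeR adjusted p-value was 1.11e-06, while DESeq2 gave 0.127 and did not call it. VIM was at least 11.7-fold higher in A4 between the DMSO libraries against the same floor. With 19 counts against 1, it was 17.0-fold higher between the E2 libraries (95% interval 2.70 to 705, counting error only). The edgeR adjusted p-value of VIM was 2.43e-05. SNAI2 and VIM passed the count filter through their A4 libraries alone, so neither p-value is support for a difference. The fitted log2 fold change of VIM was -5.36. It became -3.94 and -3.97 when A4 DMSO or B212 DMSO was left out, and -8.00 and -8.04 when A4 E2 or B212 E2 was left out. These bulk libraries cannot tell fewer cells with the transcript from less of it per cell.

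ZEB2 was not tested. It was at least 2.61-fold higher in B212 over both treatments, against a floor of 3 counts over the A4 libraries, and 7 of its 8 counts were in the B212 E2 library. FN1 (-0.065 ± 0.077), SNAI1 (-0.32 ± 0.16) and TWIST1 (-0.038 ± 0.099) were not called between the tags (edgeR, adjusted p-values 0.509, 0.112 and 0.773). Under library size as the only scaling, FN1 was 0.0021 and TWIST1 0.029, so their direction depended on the scaling.

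**Figure D3:**
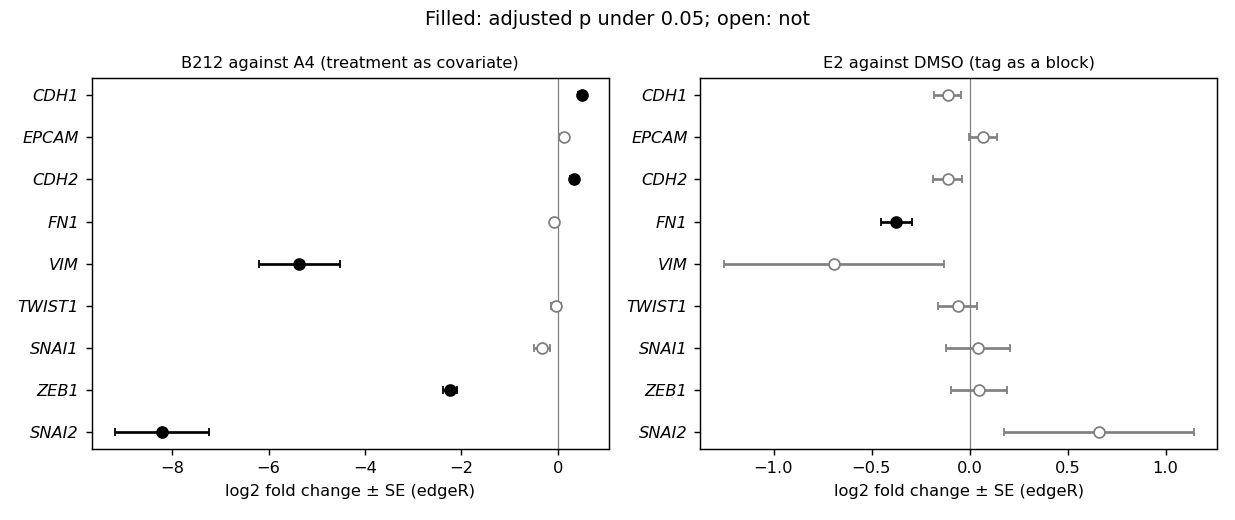
Log2 fold changes (x axis) ± SE of the 9 tested genes (y axis), between tags with treatment as a covariate (left) and between treatments with the tag as a block (right); filled points have an adjusted p-value under 0.05 by edgeR. CDH1 and CDH2 are right of 0 and ZEB1, SNAI2 and VIM left of 0 between the tags, and FN1 alone is filled between the treatments. SNAI2 and VIM passed the count filter through their A4 libraries alone.

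ZEB1 and ZEB2 mRNAs are known targets of the miR-200 family of microRNAs, and ZEB factors in turn repress the genes of that family. The family's mature sequences, from RefSeq (GRCh38.p14), fall into 2 groups by seed, the bases 2 to 8 that pair with a target, given here in capitals. In the group with the seed AAUACUG are miR-200b-3p, miR-200c-3p and miR-429:
hsa-miR-200b-3p: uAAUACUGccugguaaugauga
hsa-miR-200c-3p: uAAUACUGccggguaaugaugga
hsa-miR-429: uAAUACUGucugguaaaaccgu
In the group with the seed AACACUG are miR-200a-3p and miR-141-3p:
hsa-miR-200a-3p: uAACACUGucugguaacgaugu
hsa-miR-141-3p: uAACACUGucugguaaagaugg

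The part of the longest coding ZEB1 transcript after the stop codon (GENCODE 29, GRCh38, 2549 bases) was searched on the transcript strand for the 7 letters that pair with each seed. CAGTATT, the partner of AAUACUG, occurred 6 times in ZEB1, 5 times in ZEB2, 2 times in FN1 and 1 time in SNAI2, and in none of the other 6 genes. At least 1 match was found in 16.3% of 18683 genes searched in the same way, over stretches of unequal length, and 6 or more in 0.0161%. CAGTGTT, the partner of AACACUG, occurred 3 times in ZEB1 and 4 times in ZEB2, with at least 1 match in 18.4% of all genes. The 6 CAGTATT matches of ZEB1 are shown because no other of the 10 genes held as many, with the match in capitals and its position on the plus strand:
ZEB1 chr10:31527633-31527639: atcttatCAGTATTatcactc
ZEB1 chr10:31527727-31527733: tccgcttCAGTATTttattat
ZEB1 chr10:31528156-31528162: catttctCAGTATTttcaagg
ZEB1 chr10:31528507-31528513: tacctatCAGTATTattttat
ZEB1 chr10:31528577-31528583: aacctggCAGTATTaataccc
ZEB1 chr10:31529228-31529234: tcattatCAGTATTttctttg

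A match of letters is a description and not a measured site. Mature microRNAs were not measured, since poly(A) selection leaves only their longer primary transcripts. Reads over the hairpin genes were few, and these genes were looked at after their values were seen. MIR429 had 11 and 14 counts in A4 and 27 and 32 counts in B212, so that both B212 libraries were the higher. Its log2 fold change in B212 was 1.22 ± 0.41 (SE; edgeR, adjusted p-value 0.0175), beside 25.2% of all tested genes called higher. Because MIR429 was picked after its values were seen, that p-value is no support for a difference. A link between MIR429 and ZEB1 was not tested. MIR200A had 0 and 2 counts in A4 and 8 and 8 counts in B212, and MIR200B had 5 and 1 counts against 3 and 3. MIR200C had 0 counts in all libraries and MIR141 at most 2.

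RefSeq promoter windows (GRCh38.p14) were found for 5 of the 10 genes, CDH2, VIM, FN1, ZEB1 and ZEB2, over 12 start sites. The 250 bases before each start were searched on both strands for CACCTG, the E-box that SNAI and ZEB factors bind, and for the full estrogen response element (the consensus palindrome with a spacer of any 3 bases). The E-box was found in 2 of the 7 ZEB1 windows and in none of the others, beside 17.5% of all 35116 windows of this length. The window with 2 matches, at -242 and -85 from the start, is shown on the plus strand with both in capitals, the second as its reverse complement:
ZEB1 chr10:31318966-31319215: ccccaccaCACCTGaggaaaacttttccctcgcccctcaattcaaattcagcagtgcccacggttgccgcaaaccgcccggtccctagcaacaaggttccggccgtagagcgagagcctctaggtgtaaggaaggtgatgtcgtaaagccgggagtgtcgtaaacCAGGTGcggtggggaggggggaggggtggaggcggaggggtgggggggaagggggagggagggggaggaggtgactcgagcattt

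The full estrogen response element was in none of the 12 windows and in 0.0399% of all windows. FN1, called with E2 only where the tag was a block, is shown with TGACGTCA in capitals, the cyclic AMP response element. The part of this element in that call was not tested. GGGCGG and TATAAA were also searched and are not marked. TGACGTCA was searched on both strands, with matches in 1.65% of all windows. It begins at -183 from the start, and the window is shown on the minus strand, the strand of the gene:
FN1 chr2:215436069-215436318: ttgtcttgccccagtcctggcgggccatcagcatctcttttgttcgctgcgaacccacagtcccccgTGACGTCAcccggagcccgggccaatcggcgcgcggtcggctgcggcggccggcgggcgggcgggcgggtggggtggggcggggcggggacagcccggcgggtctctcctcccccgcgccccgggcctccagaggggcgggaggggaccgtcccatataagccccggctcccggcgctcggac

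E2 changed 1 of the 9 tested genes, and only where the tag was a block. FN1 fell by 22.8%, a log2 fold change of -0.37 ± 0.077 (SE; edgeR, adjusted p-value 0.00624). The log2 change was -0.29 in A4 and -0.45 in B212. That fit called 9.56% of all genes (6.13% higher and 3.44% lower), so 1 call in 9 genes was near the background. Without a block edgeR called 0% of all genes, with 150 at an unadjusted p under 0.05 and 1 gene called by DESeq2. FN1 then had a log2 fold change of -0.37 ± 0.12, an unadjusted p-value of 0.0342 and an adjusted p-value of 0.9999 by edgeR. With the block and after the same removal of length and GC content, FN1 was -0.24 ± 0.068 and was no longer called (edgeR adjusted p-value 0.0864). The FN1 transcript, at 8905 bases, is among the longest of the 10 genes, after that of ZEB2.

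The cadherins were not called. With the tag as a block CDH1 had a log2 fold change of -0.11 ± 0.071 and CDH2 one of -0.11 ± 0.073 (edgeR adjusted p-values 0.340 and 0.364). The log2 ratio of E2 to DMSO was -0.12 in A4 and -0.11 in B212 for CDH1, and -0.17 and -0.052 for CDH2. EPCAM had 0.068 ± 0.073, ZEB1 0.048 ± 0.14, SNAI1 0.044 ± 0.16 and TWIST1 -0.060 ± 0.099, with edgeR adjusted p-values of 0.607 to 0.897. ZEB1 had a log2 ratio of 0.048 in A4 and 0.048 in B212. SNAI2 rested on 27 and 48 counts in A4, a log2 ratio of 0.67 with a 95% interval of -0.043 to 1.40 from counting alone. VIM rested on 30 and 19 counts in A4, a log2 ratio of -0.82 with an interval of -1.73 to 0.054. Neither SNAI2 nor VIM was called, and both intervals from counting include 0.

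Genes that work with the 10 were taken from lists written from general knowledge, but with earlier results of these data known. In all, 102 list genes were tested. In the tag comparison 39 of them were higher and 27 lower in B212, and 36 were not called, where 25.2% of all tested genes were higher and 25.8% lower. The epithelial regulators and surface genes had 18 tested members, of which 12 were higher, 2 lower and 4 not called, with a median log2 fold change of 0.38 (all genes: 0.0042). EHF and ELF3, epithelial ETS factors, were higher by 1.49 ± 0.084 and 0.87 ± 0.075 (SE), and ERBB3, a receptor of the EGF receptor family, by 0.65 ± 0.070. SPINT1, a serine protease inhibitor, and ESRP2, an epithelial splicing factor, were lower, with log2 fold changes of -0.51 ± 0.069 and -0.33 ± 0.089. In the adherens junction and desmosome list 8 of 14 were higher and 1 lower, with a median of 0.23. CDH3, which encodes P-cadherin, was higher by 0.74 ± 0.072, and DSC2, a desmosomal cadherin, by 0.72 ± 0.070. AFDN, an adherens junction scaffold listed as MLLT4, was higher by 0.43 ± 0.070, and PKP3, a plakophilin of desmosomes, was the lower member (-0.41 ± 0.078). In the tight junction and polarity list 6 of 16 were higher and 0 lower, with a median of 0.12. The members with the smallest p-values were the polarity gene PARD6B (0.53 ± 0.085), MARVELD3 (0.50 ± 0.087) and TJP1, which encodes the scaffold ZO-1 (0.34 ± 0.071).

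Of 22 tested mesenchymal genes, 15 were lower and 5 higher in B212, with a median log2 fold change of -0.57. Of all tested genes, 25.8% were lower and 25.2% higher. TGFBI, a secreted matrix protein, was at 50.3 and 41.3 CPM in A4 and 2.33 and 1.54 CPM in B212 (-4.57 ± 0.11). LOX, which crosslinks collagen, differed by -2.33 ± 0.086, and AXL, a receptor tyrosine kinase, by -2.47 ± 0.11. FSTL1 (0.68 ± 0.072), the tropomyosin gene TPM1 (0.38 ± 0.070) and TNC, which encodes tenascin C (0.39 ± 0.075), were higher in B212. CDH11 and POSTN, with at most 3 counts in a library, were not tested. The other EMT factors went both ways, with 6 of 15 higher, 6 lower and a median of 0.045. HMGA2 (0.57 ± 0.071), TCF4 (0.45 ± 0.079) and SOX4 (0.36 ± 0.072) were higher. ID3 (-1.21 ± 0.14), TWIST2 (-1.84 ± 0.31) and SOX9 (-0.43 ± 0.080) were lower. PRRX1 and GSC had 0 counts in all libraries. Of 17 corepressor and turnover genes, 2 were higher, 3 lower and 12 not called, with a median of 0.083. Those called were USP37 (0.38 ± 0.070) and CTBP2 (0.21 ± 0.068) among the higher and FBXL14 (-0.51 ± 0.11), HDAC2 (-0.23 ± 0.071) and CSNK2A1 (-0.17 ± 0.069) among the lower.

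**Figure D4:**
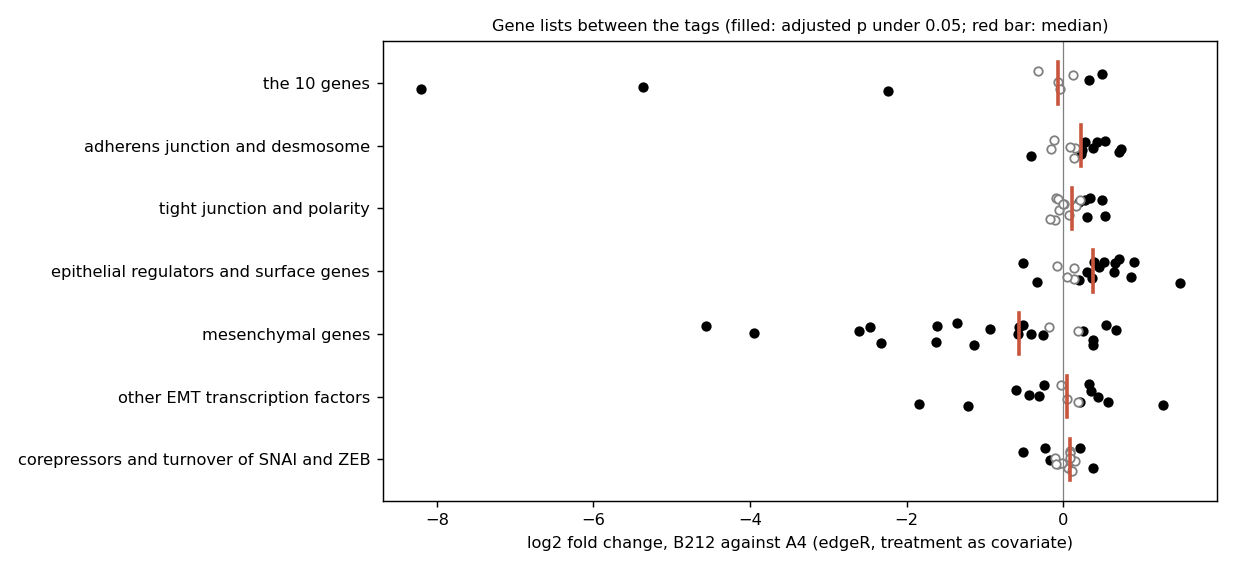
Log2 fold changes between B212 and A4 (x axis) of the tested genes of each list (y axis); each point is 1 gene, filled where the edgeR adjusted p-value is under 0.05, and the red bar is the median. The medians are 0.38 for the epithelial regulators and -0.57 for the mesenchymal genes, and points of both signs are called in 5 of the 6 lists below the 10 genes.

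Markers of other cell types were read beside these differences. The 8 endometrial epithelium markers summed to 2382 and 2239 CPM in A4 and 3022 and 2766 CPM in B212, with none at 0. That list holds CDH1 and EPCAM, and 6 of its 8 genes were higher in B212, beside 25.2% of all tested genes. The 8 fibroblast or stroma markers summed to 132 and 96.0 CPM in A4 and 46.7 and 38.6 CPM in B212. Nearly all of that was COL1A1 (128, 92.4, 42.4 and 34.5 CPM), while the defining markers DCN and LUM had at most 1 and at most 5 counts in a library. Of the 5 stroma markers tested, 3 were lower in B212, COL1A1, COL1A2 (-1.52) and COL3A1 (-2.40), and 1 was higher, THY1 (1.36 ± 0.17). The median log2 fold change of the 5 was -1.51. Of all tested genes, 25.8% were lower and 25.2% higher in B212. Leukocyte markers summed to at most 1.19 CPM and endothelial markers to at most 5.11 CPM, of which VWF made up most. PTPRC had 25 to 37 counts in a library and PECAM1 had 0. COL1A1, a fibrillar collagen gene, differed between tags by -1.51 on the log2 scale and with E2, under the tag block, by -0.39 ± 0.074 (edgeR, adjusted p-value 0.00394). Its call with E2 was lost without a block (adjusted p-value 0.9999) and after removal of what followed length and GC content (0.0792), both by edgeR. COL1A1 was thus lower in the same libraries as ZEB1, SNAI2 and VIM between the tags and as FN1 between the treatments, and its part in their differences was not tested.

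With E2 and the tag as a block, 4 of the 102 list genes were higher and 14 lower, and without a block 0 were called. Of all tested genes, 6.13% were higher and 3.44% lower under the block. Of 14 adherens junction and desmosome genes 4 were lower and 0 higher, with a median log2 fold change of -0.11 (all genes: -0.0081). With the part that followed transcript length and GC content removed, that median was -0.029 (all genes: -0.0099) and 2 were lower. JUP, which encodes plakoglobin, fell by 0.51 ± 0.068 (SE), DSP, the desmosomal plaque gene desmoplakin, fell by 0.29 ± 0.071 and CTNNA1, alpha-catenin, fell by 0.29 ± 0.073. In the tight junction list 2 of 16 were lower and 0 higher, among them the polarity gene SCRIB (-0.24 ± 0.075). Among 18 epithelial regulators 2 were higher, among them EHF (0.30 ± 0.083), and 3 were lower. SPINT1 (-0.28 ± 0.068), PRSS8 (-0.27 ± 0.081) and ERBB3 (-0.23 ± 0.070) were those lower. Among 22 mesenchymal genes GNG11 (0.34 ± 0.092) and TPM2 (0.36 ± 0.11) were higher, and TNC (-0.38 ± 0.075), TGFBI (-0.37 ± 0.10) and CALD1 (-0.23 ± 0.070) were lower. SOX4 (-0.40 ± 0.072) and HMGA2 (-0.29 ± 0.071) were lower among the 15 other EMT factors, and 0 of the 17 corepressor and turnover genes were called. After removal of what followed transcript length and GC content, 7 of these 18 genes remained called, among them JUP, CTNNA1, CALD1, SOX4 and HMGA2.

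The genes whose pattern was most like that of the members with the widest gap between tags were found by their distance in centred log2 CPM over the 4 libraries. Of 12488 genes with a mean of at least 100 counts, BCAT1 (distance 0.0823), GAL (0.128) and ANKRD1 (0.134) lay nearest to ZEB1. BCAT1 had 7918 and 9748 counts in A4 and 1958 and 1779 in B212. Nearest to SNAI2 were LSAMP (0.547), MGC39584 (0.748) and RGS4 (0.761), and nearest to VIM were CBLN2 (0.421), PDZD4 (0.503) and PCDHAC2 (0.668). All 9 were lower in B212, as were the members they were chosen to resemble, so this was fixed by the choice. With 4 libraries in 2 tags, such a distance mainly reads the gap between the tags. SNAI2 and VIM had at most 1 count in a B212 library. Their log2 CPM there is set largely by the prior count of 2, so their distances depend on it.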

How the data were processed

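The deposited values were raw counts per gene symbol from poly(A)-selected RNA. HISAT2, SAMtools, featureCounts and DESeq2 and the build hg19 are named in the submitters' processing notes, with no role or version. No coordinates come from the count table. Those of sequences are RefSeq's or GENCODE's on GRCh38. Another 4 columns matched no sample and were not used. Columns were placed by the treatment in their name, and the pairing of DMSO and E2 libraries rests on the tag in the column name. Deviations of same-tag libraries from their group means correlated across genes (r = 0.871).

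Genes were kept by filterByExpr (minimum count 10) in edgeR 4.0.16, run in R 4.3.3, which left 15599. Comparisons used TMM scaling and the quasi-likelihood test, with Benjamini-Hochberg adjustment over all genes and a threshold of 0.05. Each SE was the fold change over the square root of F. Log2 CPM had a prior count of 2. Lengths (longest GENCODE 29 transcript) were found for 96.6% of tested genes, matched by symbol. The trend on length and GC content was fitted with mgcv 1.9.3. Alternatives used limma 3.58.1 and DESeq2 1.42.0, and figures Python 3.11.15 with matplotlib 3.10.9. Scripts were tested on simulated data.

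The members and lists were chosen with earlier results of these data known, and so was the rule for naming genes. It took all members, up to 3 genes in each direction of each list with the smallest p-values past the threshold, and the 3 genes most like each member called between tags at a fold change of 1 or more on the log2 scale in either direction. For MIR200CHG and DUB3 no row was matched, and 4 current symbols were matched through older ones. Some genes that this rule takes are not reported here.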

Additional observations from a re-analysis of the deposited data

Results flagged for a closer look

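Among the members with more than 3 counts in all libraries, 2 moved in opposite directions with E2 in the A4 and B212 libraries. SNAI1 had a log2 ratio of E2 to DMSO of -0.010 in A4 and 0.10 in B212. TWIST1 had one of -0.17 in A4 and 0.050 in B212. The difference between the tags was not tested: a treatment had 1 library in each tag. From counting error alone, the 95% intervals of SNAI1 were -0.30 to 0.28 in A4 and -0.22 to 0.43 in B212, and both include 0. Those of TWIST1 were -0.30 to -0.041 in A4, which excludes 0, and -0.079 to 0.18 in B212.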

How the results depend on the processing

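The E2 comparison turned on the block. Without it edgeR called 0 genes under each scaling and with each library left out (the lone library of a group was then assumed to vary like the others), and DESeq2 called 1. With the tag as a replicate block, edgeR called 1492 genes, 1 member (FN1) and 18 list genes. With the replicate block and DESeq2 size factors these were 717, 1 and 9, with library size only 1686, 1 and 22, without a filter 1770, 1 and 19, and with at least 10 counts in every library 1560, 1 and 20. With the replicate block, DESeq2 gave 562, 1 and 10, limma-voom 1138, 1 and 14, and removal of the length and GC trend 449, 0 and 8. The replicate block changed no other member's call. Library size as the only scaling split the calls into 911 higher and 775 lower, in place of 956 and 536. For the tags it split them into 4761 higher and 3176 lower, in place of 3927 and 4023. In the tag comparison 7950 genes were called, and 4456 with no treatment term. With at least 10 counts in every library 3 members were called, since VIM and SNAI2 were then not tested.

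Leaving out 1 library at a time, the E2 log2 fold change without a block ranged from -0.39 to 0.14 for CDH1 (0.12 without A4 E2), from -0.31 to 0.078 for CDH2 (0.026 without B212 DMSO) and from -0.022 to 0.15 for EPCAM. It ranged from -3.74 to 6.34 for VIM (0.20 without B212 E2), from -1.47 to 1.57 for ZEB1 (-0.69 without B212 DMSO), from -0.15 to 0.24 for SNAI1 (-0.098 without A4 E2), from -6.82 to 7.58 for SNAI2 (-0.33 without B212 DMSO) and from -0.15 to 0.018 for TWIST1. FN1 kept its direction, from -0.45 to -0.30. With 1 library left out and no block, 1 treatment holds a single tag, so these values take in the gap between the tags. Within a tag, the log2 ratio of E2 to DMSO for ZEB1 was 0.048 in A4 and 0.048 in B212. EPCAM was -0.033 with the replicate block and removal of the length and GC trend. Between tags, leaving out a library allowed no test, since no residual degree of freedom remained. The values ranged from -0.18 to 0.016 for FN1 and from -0.15 to 0.072 for TWIST1 (0.037 without B212 DMSO). FN1 was 0.0021 with library size only, and TWIST1 was 0.029 with library size only and 0.023 after removal of the trend. The other 7 tested members kept their direction between tags under all alternatives run. The cause of the other changes was not tested. Depth limits VIM, SNAI2 and ZEB2, with at most 48 counts in a library.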
